A study of Mus musculus with 6 samples.

Results

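Otor, Mpp7, Negr1, Prnd, Syt6 and Insc are 6 genes whose RNA differed widely between CKO and Rras2FF libraries and that are seldom discussed in bone marrow stroma. They were picked by symbol, with the values of this comparison already known, from a table of 12830 genes, and all 6 were found there. RNA had been sequenced from primary BMSCs (cells of the bone marrow stroma grown in culture, from which bone-forming and fat cells can arise) on day 2 of osteogenic induction. The 3 CKO libraries came from Prx1;Rras2f/f mice and the 3 Rras2FF libraries from Rras2f/f mice, all 8 weeks old, so the floxed Rras2 allele was common to both groups. The Prx1 promoter is known as a driver of recombination in limb mesenchyme, not in blood cells, and the labels do not name the recombinase. They also do not say whether each library came from its own animal, so p-values cover no more than the spread among these samples, and that spread may be technical.

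The counts summed to between 31934714 and 37561452 per library over the listed genes. Rras2, which encodes the small GTPase TC21, had 26.7, 29.0 and 26.8 CPM (reads per gene scaled to a common library size) in CKO libraries 1, 2 and 3, against 49.7, 50.1 and 44.7 CPM in Rras2FF libraries 1, 2 and 3. Rras2 RNA was thus lower in each CKO library than in any Rras2FF library. All 9 stromal markers were measured, and their summed level was 16093 to 17867 CPM in CKO and 20077 to 21270 CPM in Rras2FF. In edgeR 2 were higher in CKO, Cxcl12 and Lepr, and 2 lower, Col1a1 and Col1a2, where 2.1% of all genes were higher and 2.74% lower. Most of the sum came from Col1a1, Col1a2 and Cxcl12. Their means were 5427, 4949 and 4838 CPM in CKO, against 8159, 6717 and 3483 CPM in Rras2FF. Macrophage markers were also abundant, with a summed level of 21027 to 21709 CPM in CKO and 19336 to 20706 CPM in Rras2FF. Lyz2 made up most of that sum, with means of 17134 CPM in CKO and 15801 CPM in Rras2FF. In such bulk RNA, fewer cells of a type and less RNA per cell cannot be told apart.

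The 6 genes have little known function in common. Otor encodes otoraplin, a small secreted protein with an SH3-like fold from the family of MIA, known from the cochlea and from cartilage. Negr1 and Prnd encode proteins held to the outer cell surface by a glycolipid anchor: Negr1 is an IgLON cell adhesion molecule best known from neurons and from a human obesity locus, and Prnd encodes doppel, a relative of the prion protein known from testis. Mpp7 encodes a MAGUK scaffold that joins DLG and LIN7 proteins at cell junctions, and in humans its locus is known from genome-wide studies of bone mineral density. Syt6 encodes a synaptotagmin, a membrane protein with C2 domains that acts in vesicle exocytosis, among others in the sperm acrosome reaction. Insc encodes the mammalian inscuteable, an adaptor between the PAR polarity complex and the LGN protein that orients the mitotic spindle.

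The start regions of 5 of the genes, as RefSeq gives them on GRCm38.p6 (the same assembly as mm10), are printed to show their base composition and motifs. Mpp7 was left out, and its start region was not searched, so the windows do not describe the whole set. Each covers 250 bases before to 50 after an annotated start, 5′ to 3′ on the plus strand, which is the gene's strand in each case. These starts can differ from the gene coordinates given further on, which come from another annotation. The Insc window begins at 114745516, inside the gene given there from 114743694. The Otor window ends at 143078442, before the gene given there from 143078473. Capitals mark matches on either strand to 6 motifs. AP-1 factors are known to bind TGANTCA, TEAD factors bind GGAATG and RUNX factors bind TGTGGT. The SMAD element was searched as CAGAC, the ETS core as CCGGAA and the TATA box as TATAAA. For Syt6 the first and the last of the annotated starts are shown, since its transcript mix is a matter of the values given further on.
Otor, chr2:143078143-143078442: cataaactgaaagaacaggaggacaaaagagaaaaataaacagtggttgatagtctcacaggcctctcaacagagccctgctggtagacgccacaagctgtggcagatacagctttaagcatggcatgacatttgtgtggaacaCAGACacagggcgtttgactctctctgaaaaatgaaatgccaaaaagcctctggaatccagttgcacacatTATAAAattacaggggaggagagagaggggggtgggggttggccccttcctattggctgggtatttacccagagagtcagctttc
Negr1, chr3:156561544-156561843: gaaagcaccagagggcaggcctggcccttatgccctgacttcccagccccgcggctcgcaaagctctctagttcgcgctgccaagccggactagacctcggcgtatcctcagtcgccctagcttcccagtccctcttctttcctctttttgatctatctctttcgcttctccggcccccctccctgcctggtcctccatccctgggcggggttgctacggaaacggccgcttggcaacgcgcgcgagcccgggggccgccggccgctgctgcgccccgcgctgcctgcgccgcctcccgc
Prnd, chr2:131950611-131950910: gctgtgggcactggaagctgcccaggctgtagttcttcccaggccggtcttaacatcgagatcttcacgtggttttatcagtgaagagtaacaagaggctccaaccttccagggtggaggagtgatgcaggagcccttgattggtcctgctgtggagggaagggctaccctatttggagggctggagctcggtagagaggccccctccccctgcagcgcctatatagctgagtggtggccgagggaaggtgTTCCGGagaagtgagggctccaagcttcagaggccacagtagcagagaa
Syt6, first start, chr3:103574995-103575294: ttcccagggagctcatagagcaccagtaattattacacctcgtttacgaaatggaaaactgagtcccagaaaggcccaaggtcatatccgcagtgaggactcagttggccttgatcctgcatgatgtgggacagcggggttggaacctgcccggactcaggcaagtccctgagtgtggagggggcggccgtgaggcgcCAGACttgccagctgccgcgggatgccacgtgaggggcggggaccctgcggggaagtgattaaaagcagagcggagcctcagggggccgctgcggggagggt
Syt6, last start, chr3:103575876-103576175: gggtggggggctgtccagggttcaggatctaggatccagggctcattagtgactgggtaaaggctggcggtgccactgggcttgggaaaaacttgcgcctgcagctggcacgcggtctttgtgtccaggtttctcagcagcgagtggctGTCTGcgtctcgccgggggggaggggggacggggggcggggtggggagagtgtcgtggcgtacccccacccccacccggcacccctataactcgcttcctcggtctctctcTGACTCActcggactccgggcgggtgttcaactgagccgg
Insc, chr7:114745516-114745815: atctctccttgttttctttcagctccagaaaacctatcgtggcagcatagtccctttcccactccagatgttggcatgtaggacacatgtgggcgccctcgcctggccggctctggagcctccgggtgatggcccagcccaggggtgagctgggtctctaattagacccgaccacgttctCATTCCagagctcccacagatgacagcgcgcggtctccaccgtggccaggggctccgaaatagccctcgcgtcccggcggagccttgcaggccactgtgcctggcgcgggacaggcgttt
The Otor window had 2 CpG pairs and 47.3% G and C, and the Negr1 window 29 CpG pairs and 68.0% G and C, against medians of 7 and 52.7% over 32851 mouse promoter windows of the same length. The other windows shown lay between, with 7 CpG pairs and 57.7% G and C for Prnd, 19 and 62.0% for Insc, and 16 and 61.0% for the first and 19 and 65.7% for the last Syt6 start. TATAAA began 35 bases before the RefSeq start of Otor and was in none of the other 5 windows shown, and 13.6% of all windows hold it. CAGAC was in the Otor window and both Syt6 windows, against 49.6% of all. GGAATG was in the Insc window, shown there as its reverse complement (14.7% of all). CCGGAA, also as its reverse complement, was in the Prnd window shown (14.9% of all), and TGANTCA in that of the last Syt6 start (7.81% of all). No window shown had TGTGGT, which 16.8% of all windows hold, and the Negr1 window had none of the 6 motifs. A second annotated Prnd start, whose window at chr2:131950787-131951086 is not printed, held the TEAD, SMAD and ETS motifs. Such letters describe a window and do not show binding.

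Otor, the secreted MIA relative, had 12.5, 15.3 and 16.9 CPM in CKO libraries 1, 2 and 3, against 7.55, 7.02 and 8.07 CPM in Rras2FF libraries 1, 2 and 3. Every CKO library was above every Rras2FF library, and CKO replicate 1 was the nearest to Rras2FF. The means were 14.9 ± 2.24 CPM in CKO and 7.55 ± 0.525 CPM in Rras2FF (SD, n = 3 each), a log2 fold change of 0.98 (standard error 0.122), or 1.97-fold higher. The gene, ENSMUSG00000027416, lies on chromosome 2 from 143078473 to 143081713 on the plus strand of mm10, with 1 annotated transcript of 4 exons.

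Negr1, the neuronal adhesion gene, had 6.53, 7.46 and 6.91 CPM in CKO, against 3.56, 3.80 and 3.71 CPM in Rras2FF, in the order of replicates 1, 2 and 3. The groups lay far apart relative to their spread, with means of 6.97 ± 0.469 CPM in CKO and 3.69 ± 0.122 CPM in Rras2FF (SD, n = 3 each). The log2 fold change was 0.92 (standard error 0.142), or 1.89-fold higher. Negr1, ENSMUSG00000040037, spans 754652 bases of chromosome 3, from 156561794 to 157316445 on the plus strand.

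Prnd, the doppel gene, had 8.78, 7.89 and 6.94 CPM in CKO, against 3.18, 5.86 and 3.80 CPM in Rras2FF. The groups did not overlap in CPM, but Rras2FF replicate 2 came close to CKO replicate 3. The means were 7.87 ± 0.920 CPM in CKO and 4.28 ± 1.40 CPM in Rras2FF (SD, n = 3 each), a log2 fold change of 0.87 (standard error 0.205), or 1.83-fold higher. Prnd, ENSMUSG00000027338, covers 5270 bases of chromosome 2, from 131950861 to 131956130 on the plus strand, within the span of an annotated gene named Prn that starts at 131909957 and takes in the prion protein gene Prnp as well. Prn is not among the listed genes, and how reads of transcripts joining Prnp and Prnd were counted is not given in the sources used here.

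Mpp7, the junction scaffold, had 9.43, 7.35 and 8.65 CPM in CKO, against 4.14, 4.73 and 4.27 CPM in Rras2FF. All CKO libraries were above all Rras2FF libraries. The means were 8.48 ± 1.05 CPM in CKO and 4.38 ± 0.308 CPM in Rras2FF (SD, n = 3 each), a log2 fold change of 0.95 (standard error 0.142), or 1.93-fold higher. Mpp7, ENSMUSG00000057440, lies on the minus strand of chromosome 18 from 7347959 to 7626866.

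Syt6, the exocytosis gene, was the largest difference of the set. It had 4.70, 3.75 and 2.86 CPM in CKO, against 11.0, 11.9 and 9.66 CPM in Rras2FF. No library of one group came near the other, with means of 3.77 ± 0.920 CPM in CKO and 10.9 ± 1.14 CPM in Rras2FF (SD, n = 3 each). The log2 fold change was -1.53 (standard error 0.169), or 2.88-fold lower. Syt6, ENSMUSG00000027849, lies on chromosome 3 from 103575231 to 103645569 on the plus strand.

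Insc, the spindle adaptor, had 32.2, 28.8 and 24.1 CPM in CKO, against 49.5, 51.3 and 53.4 CPM in Rras2FF. The groups did not overlap, and CKO libraries were the more spread of the groups. The means were 28.3 ± 4.06 CPM in CKO and 51.4 ± 1.98 CPM in Rras2FF (SD, n = 3 each), a log2 fold change of -0.86 (standard error 0.0912), or 1.81-fold lower. Insc, ENSMUSG00000048782, lies on chromosome 7 from 114743694 to 114850383 on the plus strand.

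**Figure D1:**
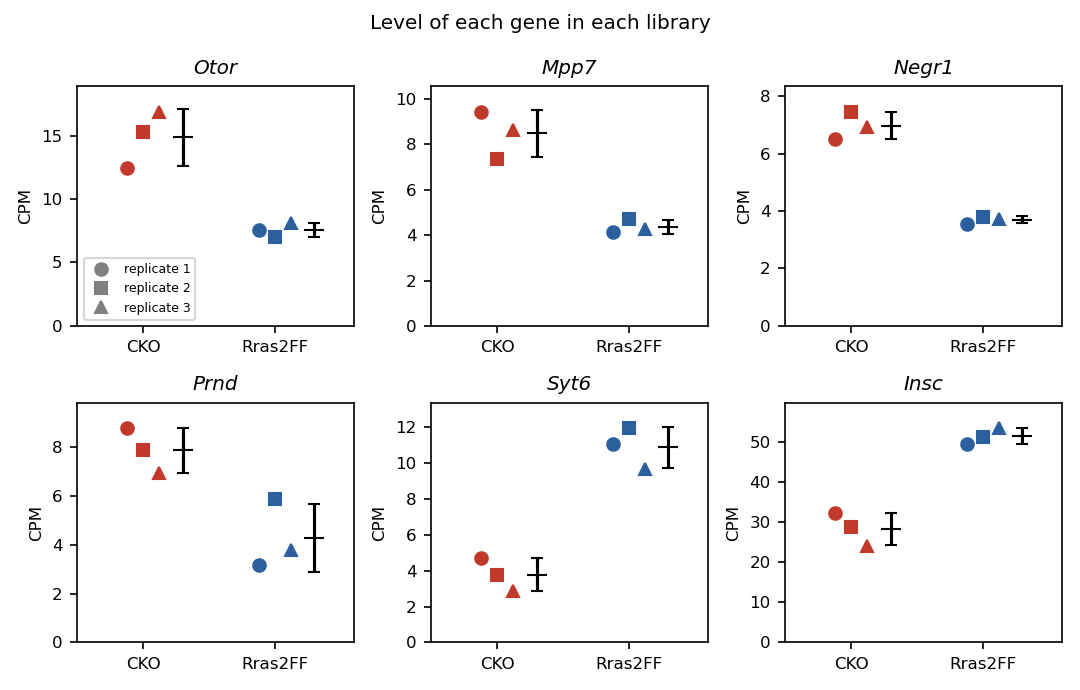
Level of the 6 genes in CPM (vertical axes, each starting at 0) in each CKO and Rras2FF library, with circles, squares and triangles for replicates 1, 2 and 3 and black bars for the mean ± SD of 3 libraries. Otor, Mpp7, Negr1 and Prnd were higher in all 3 CKO libraries and Syt6 and Insc lower, with the narrowest distance between the groups for Prnd.

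All 6 genes passed the edgeR quasi-likelihood test at an adjusted p below 0.05, where 4.84% of the 12830 genes passed. Higher in CKO were 4 of them, against 2.1% of all genes, and lower 2, against 2.74%. All 6 also had groups that did not overlap, against 22.5% of genes. Since the genes were chosen on this comparison, those counts describe the choice and support nothing. By the size of the log2 fold change Syt6 ranked 58th of 12830, Otor 163rd, Mpp7 174th, Negr1 193rd, Prnd 213th and Insc 218th. The distance between the nearest libraries differed more among the genes than the mean changes did. For Syt6 the lowest Rras2FF library was 2.05 times the highest CKO library, and for Insc 1.54 times. The lowest CKO library was 1.72 times the highest Rras2FF library for Negr1, 1.55 times for Mpp7, 1.54 times for Otor and 1.18 times for Prnd.

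Spread between libraries of a group was set beside that of genes of like level, taken as those with a mean CPM within 1.5-fold. Negr1 was among the steadiest, with a within-group SD of 0.0762 on the log2 scale where 4.26% of 1196 genes of like level had less. Prnd was among the most variable, with an SD of 0.341 where 92.0% of 1275 genes had less. Insc had an SD of 0.154, small in itself, but 94.2% of 3057 genes of its level had less. For Syt6, Otor and Mpp7 those with less were 89.2%, 77.1% and 40.1%. Prnd no longer passed without CKO replicate 1, 2 or 3, where its log2 fold change was 0.79, 0.87 and 0.96, without Rras2FF replicate 1 or 3, where it was 0.70 and 0.80, or in limma-voom, where it was 0.90. The other 5 genes passed under each of these settings. Since the genes were chosen on this comparison, passing again on the same libraries describes the choice and supports nothing.

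The CKO libraries did not take the same order in every gene. CKO replicate 1 was the CKO library nearest to Rras2FF for Otor, Negr1, Syt6 and Insc, but the farthest from it for Mpp7 and Prnd. CKO replicate 3 was the farthest for Otor, Syt6 and Insc, and the nearest for Prnd. In log2 units CKO replicate 3 deviated from the CKO mean by -0.37 for Syt6 and -0.225 for Insc, and CKO replicate 1 by 0.35 and 0.19. Rras2 itself differed little among the CKO libraries, with 26.7 to 29.0 CPM.

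Levels can be set between genes only per length, for which the deposited FPKM values (reads scaled for transcript length and library size) were used. In CKO the order was Otor at 14.2 ± 2.05 FPKM, Insc at 10.9 ± 1.64, Prnd at 2.61 ± 0.362, Mpp7 at 1.58 ± 0.179, Negr1 at 1.28 ± 0.0909 and Syt6 at 0.889 ± 0.280 FPKM (SD, n = 3 each). The ranges of Otor and Insc overlapped there, as did those of Mpp7 and Negr1. In Rras2FF the order was Insc at 20.1 ± 1.11 FPKM, Otor at 7.27 ± 0.522, Syt6 at 2.65 ± 0.244, Prnd at 1.53 ± 0.701, Mpp7 at 0.820 ± 0.0538 and Negr1 at 0.699 ± 0.0408 FPKM (SD, n = 3 each). No neighbours in the Rras2FF order overlapped. Syt6 was thus the lowest of the 6 in CKO and the third in Rras2FF.

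**Figure D2:**
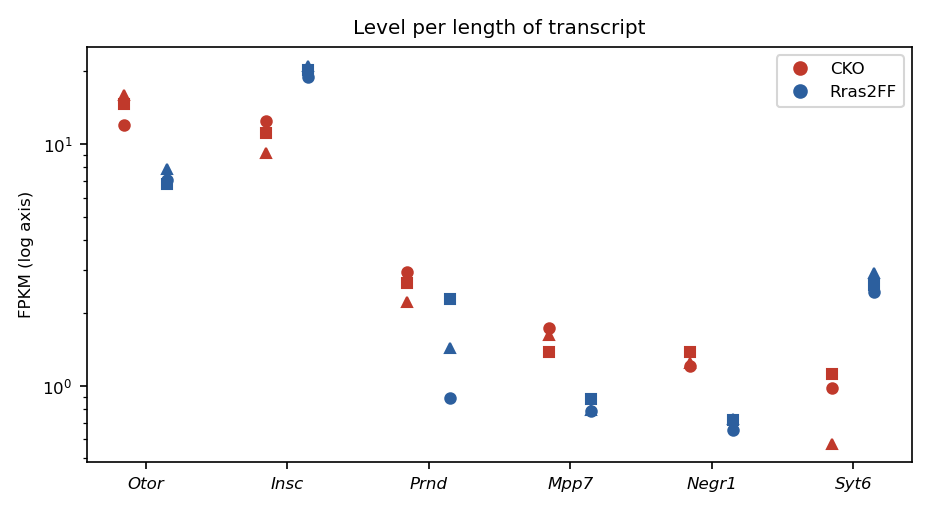
FPKM of each gene (vertical log axis) in the CKO libraries, left of each pair, and the Rras2FF libraries, right of each pair, with 1 symbol per library. Otor and Insc were expressed at 6.84 to 21.1 FPKM and the other genes at 0.576 to 2.95 FPKM, and the Prnd groups overlapped.

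Prnd looked different in the other unit. In FPKM, Prnd had 2.95, 2.66 and 2.23 in CKO libraries 1, 2 and 3, against 0.892, 2.28 and 1.43 in Rras2FF libraries 1, 2 and 3. Rras2FF replicate 2 was then above CKO replicate 3, so the groups overlapped, and the ratio of the means was 1.70-fold in CKO over Rras2FF. The other 5 genes had groups that did not overlap in FPKM either, with ratios of means between 1.83-fold and 1.96-fold for those higher in CKO.

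The number of reads behind 1 unit of FPKM was nearly constant for most genes once library size was allowed for: over all genes the highest library was a median of 1.02 times the lowest. For Insc, too, the ratio was 1.01, and Otor differed as little. For Prnd it was 1.34, larger than in 97.1% of genes, with Rras2FF replicate 1 at 1.18 of the gene's median and Rras2FF replicate 2 at 0.879. For Syt6 it was 1.47, larger than in 98.3% of genes. CKO replicate 2 stood at 0.736 and Rras2FF replicate 3 at 0.738 of the Syt6 median, and the other 4 libraries between 0.980 and 1.08. The Syt6 libraries that stood apart came from both groups. Reads per FPKM unit can depend on the length of the transcripts to which reads were assigned. The annotation gives Syt6 9 transcripts of 578 to 4416 bases, Prnd 4 of 1918 to 3176 bases and Otor 1. Insc, with its ratio of 1.01, also has 9, of 363 to 2321 bases. Mpp7 has 14 and Negr1 5, each with a ratio of 1.06. Which transcripts were present in which library was not tested.

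**Figure D3:**
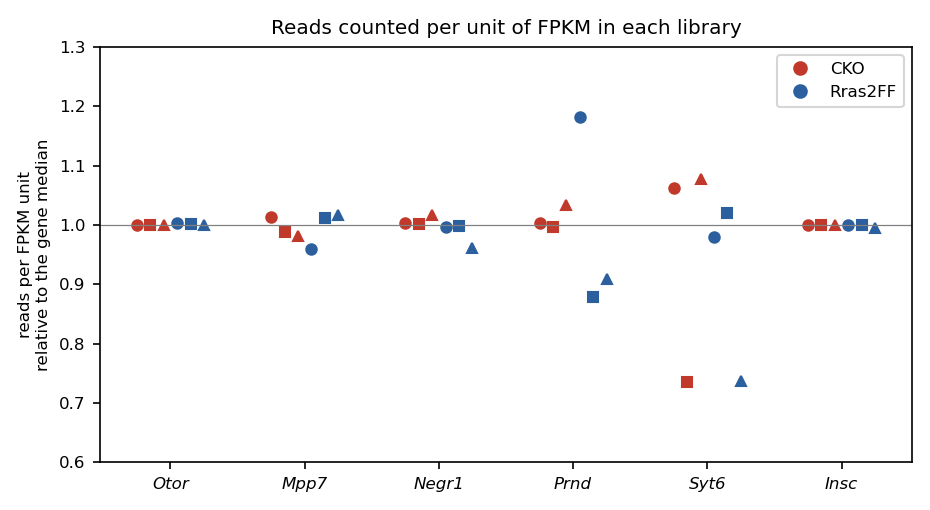
Reads counted per unit of FPKM in each library, scaled for library size and divided by the median of the gene (vertical axis, no unit), with circles, squares and triangles for replicates 1, 2 and 3. Otor and Insc stayed close to 1 in all libraries, while CKO replicate 2 and Rras2FF replicate 3 lay near 0.74 for Syt6 and the Rras2FF libraries of Prnd ranged from 0.879 to 1.18.

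Relatives and binding partners of the 6 genes, and cartilage matrix genes, were taken from 9 lists, which held 69 measured genes other than the 6. Of these, 0 rose and 3 fell in CKO (edgeR quasi-likelihood test), which is 4.35% against 4.84% of all genes, and the median log2 fold change was -0.001 against 0.001 for all genes. In DESeq2 6 fell and 0 rose, and in limma-voom 2 fell and 0 rose. Of all 12830 genes DESeq2 called 848 and limma-voom 434. The edgeR count was 7 without CKO replicate 1, of which 1 rose and 6 fell, 1 without CKO replicate 2, CKO replicate 3, Rras2FF replicate 2 or Rras2FF replicate 3, and 2 without Rras2FF replicate 1. For the counts at an unadjusted p below 0.05 given further on, no share of all genes is given, so they are description only.

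Syt15, another synaptotagmin, was the list gene with the largest change. It had 0.428, 0.490 and 0.688 CPM in CKO, against 1.33, 2.16 and 1.90 CPM in Rras2FF, from 15 to 25 reads per CKO library and 46 to 82 per Rras2FF library. The groups did not overlap, and it had a log2 fold change of -1.74 (standard error 0.321) and passed (edgeR adjusted p = 0.00546), a call that stood with each library left out (adjusted p between 0.00566 and 0.0466). Of 16 synaptotagmins other than Syt6, 6 were measured, 1 fell and 0 rose, with a median log2 fold change of -0.21. Syt9 was picked outside the naming rule, with its values known, and had 2.65 ± 0.931 CPM in CKO and 4.18 ± 0.464 CPM in Rras2FF (SD, n = 3 each) and did not pass (edgeR adjusted p = 0.157).

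Of 23 genes of the exocytic SNARE machinery, which fuses vesicles with the plasma membrane, 19 were measured and 0 passed in edgeR, DESeq2 or limma-voom, with 4 at an unadjusted p below 0.05. Their median log2 fold change was 0.088. Snap23, a SNARE of the plasma membrane, had 159 ± 6.09 CPM in CKO and 150 ± 7.21 CPM in Rras2FF (SD, n = 3 each). Vamp3, a vesicle SNARE, had a log2 fold change of 0.07.

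Among 18 partners of Insc in the PAR and LGN complexes and their kin, 14 were measured, 1 fell and 0 rose, with a median log2 fold change of -0.020. Pard6g, a PAR6 adaptor of the polarity complex, had 16.7, 16.3 and 13.4 CPM in CKO, against 20.4, 19.5 and 21.1 CPM in Rras2FF. Pard6g had a log2 fold change of -0.39 (standard error 0.0948) and passed (edgeR adjusted p = 0.0283). That call stood without CKO replicate 1 (0.00917) but ended in limma-voom (adjusted p = 0.0612), with CKO replicate 2 or 3 left out (0.0678 and 0.121) and with Rras2FF replicate 1, 2 or 3 left out (0.0794, 0.0791 and 0.105). Pard3 and Gpsm2, the direct binding partners of Insc, were chosen after their values were seen. Gpsm2, which encodes LGN, had 28.3 ± 0.755 CPM in CKO and 28.6 ± 0.359 CPM in Rras2FF, and Pard3 had 31.3 ± 1.21 CPM in CKO and 35.3 ± 1.45 CPM in Rras2FF (SD, n = 3 each). Neither passed (edgeR adjusted p = 0.945 and 0.166).

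Partners of Mpp7 among the MPP, DLG, LIN7, Crumbs and angiomotin proteins numbered 18, of which 11 were measured and 0 passed in edgeR, DESeq2 or limma-voom, with 2 at an unadjusted p below 0.05. Their median log2 fold change was 0.068. Mpp1, a related scaffold, had 200.4 ± 4.77 CPM in CKO and 191 ± 14.0 CPM in Rras2FF, and Amotl2, an angiomotin, 247 ± 4.49 CPM in CKO and 247 ± 10.9 CPM in Rras2FF (SD, n = 3 each). Dlg1, with which MPP7 forms a complex and which was chosen after its values were seen, had a log2 fold change of -0.04 and did not pass (adjusted p = 0.713 in edgeR).

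None of the measured relatives of Otor and Prnd passed the edgeR test. Mia2 and Mia3, larger members of the MIA family that act in export from the endoplasmic reticulum, had log2 fold changes of -0.02 and -0.07 (edgeR adjusted p = 0.857 and 0.473), and 0 of these 2 measured members of 3 passed in any of the 3 tools or at an unadjusted p below 0.05. Prnp, the prion protein gene, had 55.5, 56.1 and 58.2 CPM in CKO, against 64.7, 61.0 and 59.3 CPM in Rras2FF. The Prnp groups did not overlap, with all CKO libraries lower, but the log2 fold change of -0.12 did not pass (edgeR adjusted p = 0.267). The other IgLON genes Lsamp, Ntm, Opcml and Iglon5 were not among the listed genes and are not analysed here.

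Of 18 other adhesion molecules with immunoglobulin folds 9 were measured and 0 passed in edgeR, DESeq2 or limma-voom, with 2 at an unadjusted p below 0.05 and a median log2 fold change of 0.023. Vcam1, an integrin ligand of stromal cells, and Alcam, a homophilic adhesion molecule, had log2 fold changes of 0.09 and 0.10. In the cartilage matrix list, taken since cartilage is a known site of Otor, 7 of 19 genes were measured, 1 fell and 0 rose, with a median log2 fold change of -0.22, opposite in sign to that of Otor. DESeq2 called 4 of these genes, against 848 of all 12830 genes. Comp, a cartilage and tendon matrix protein picked with its values known, had 19.6, 13.3 and 11.3 CPM in CKO, against 34.1, 31.7 and 27.1 CPM in Rras2FF. Its groups did not overlap, but it did not pass (edgeR adjusted p = 0.102). Col11a1, a fibrillar collagen chain of cartilage, had a log2 fold change of -0.19 (standard error 0.0503) and passed (edgeR adjusted p = 0.0449). Its adjusted p was 0.0696 in limma-voom, 0.0784 and 0.177 with CKO replicate 2 or 3 left out, and 0.161, 0.139 and 0.0968 with Rras2FF replicate 1, 2 or 3 left out, so that the call then ended.

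**Figure D4:**
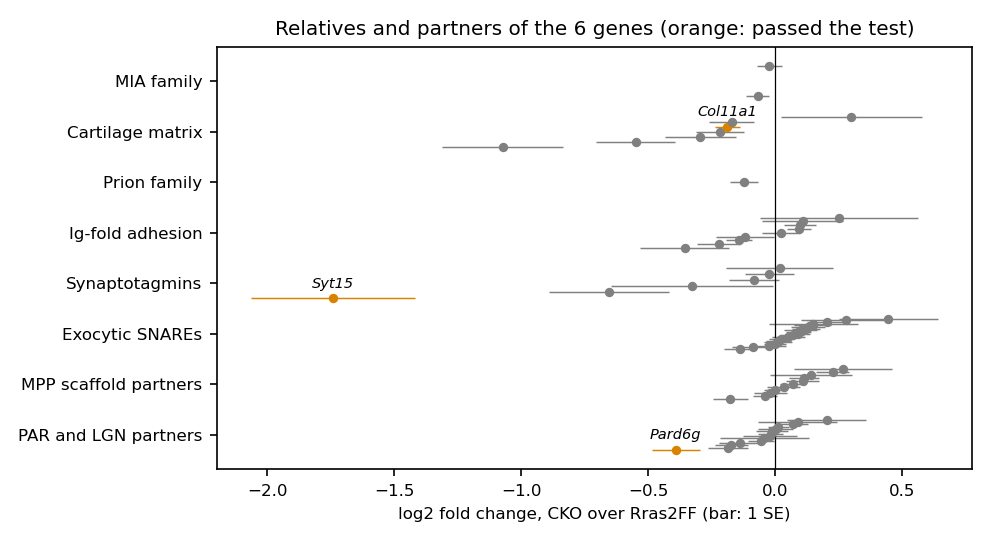
Log2 fold change of CKO over Rras2FF (horizontal axis, bars of 1 standard error) for the measured relatives and partners of the 6 genes and cartilage matrix genes. There is 1 point per gene and 1 row per list, with the 3 genes that passed the edgeR test in orange. Most genes lie near 0, and Syt15, Pard6g and Col11a1 lie to the left, at -1.74, -0.39 and -0.19.

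Neighbours on the chromosome were compared next, since position played no part in the choice of the genes. Within 1 Mb of the 6 genes lay 64 measured genes other than Rras2, of which 0 rose and 1 fell in edgeR, where 4.84% of all genes passed. Their median log2 fold change was -0.007, with 9 at an unadjusted p below 0.05. DESeq2 called 2 of them and limma-voom 1, against 848 and 434 of all genes. The edgeR count was 5 without CKO replicate 1, of which 3 rose and 2 fell, and 2 without Rras2FF replicate 1.

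The neighbour that fell was Olfml3, a secreted olfactomedin-domain glycoprotein, 76.7 kb beyond the end of Syt6. It had 336, 296 and 278 CPM in CKO, against 480.2, 464 and 462 CPM in Rras2FF, and every CKO library was lower. The Olfml3 log2 fold change was -0.63 (standard error 0.0608) and passed (edgeR adjusted p = 9.98e-05), and with each library left out its adjusted p lay between 7.72e-08 and 0.00401. Trim33, the nearest measured gene before Syt6, had a log2 fold change of -0.06 and did not pass (adjusted p = 0.651 in edgeR). Atg4a-ps lies on the opposite strand across the end of Syt6, and had 0.654 ± 0.463 CPM in CKO and 1.17 ± 0.199 CPM in Rras2FF (SD, n = 3 each). Its log2 fold change of -0.84 did not pass (adjusted p = 0.334 in edgeR). The libraries were made with a stranded kit, but the strand setting of the counting is not given in the sources used here, so reads of Atg4a-ps and Syt6 where they overlap may not be told apart.

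Insc lies 625.9 kb from Rras2, the gene targeted in CKO, on the same chromosome and the opposite strand. It was the only one of the 6 genes on chromosome 7. Rras2 had a log2 fold change of -0.81 (standard error 0.0683) and Insc one of -0.86. The 4 measured genes between them were Copb1, Psma1, Pde3b and Cyp2r1, with log2 fold changes of -0.07, 0.05, -0.09 and -0.11. None of these 4 passed (edgeR adjusted p = 0.397, 0.731, 0.823 and 0.852), nor in DESeq2 or limma-voom or at an unadjusted p below 0.05. Cyp2r1, the nearest measured neighbour and a vitamin D hydroxylase, lay 180.7 kb away. Whether the position near Rras2 bears on the Insc level was not tested.

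No measured neighbour of Otor, Prnd, Mpp7 or Negr1 passed in edgeR, DESeq2 or limma-voom, with 2, 2, 2 and 1 at an unadjusted p below 0.05. Snrpb2, a splicing protein gene 5.6 kb before Otor, had 75.5 ± 4.97 CPM in CKO and 70.2 ± 0.678 CPM in Rras2FF (SD, n = 3 each; edgeR adjusted p = 0.366), and Bfsp1, the nearest measured gene after Otor, had a log2 fold change of -0.33 and did not pass (adjusted p = 0.639 in edgeR). Prnp, 12.4 kb before Prnd on the same strand, and Rassf2, 33.3 kb after it, had log2 fold changes of -0.12 and 0.05. Mkx, a tendon homeobox gene 343.2 kb from Mpp7, had 4.86 ± 0.754 CPM in CKO and 3.37 ± 0.488 CPM in Rras2FF (SD, n = 3 each), a log2 fold change of 0.53 that did not pass (edgeR adjusted p = 0.136), and Wac, on the other side of Mpp7, had 0.02. Zranb2, the nearest measured gene to Negr1 at 217.7 kb, had a log2 fold change of -0.01.

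**Figure D5:**
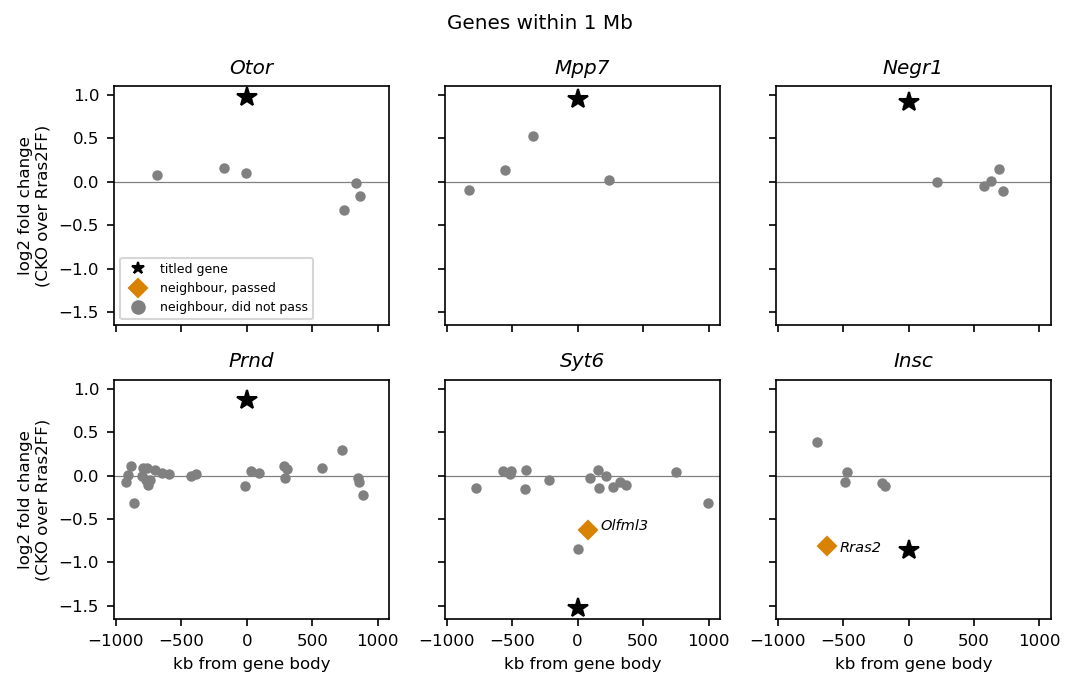
Log2 fold change of CKO over Rras2FF (vertical axis) of measured genes within 1 Mb of each of the 6 genes against the distance from the gene body in kb (horizontal axis, negative for lower coordinates). Stars are the 6 genes, diamonds the neighbours that passed the edgeR test and grey circles those that did not, and the neighbours that passed were Olfml3 beside Syt6 and Rras2 beside Insc.

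Genes with the most similar course over the 6 libraries were named by the highest Pearson correlation of log2 CPM, among those averaging 5 CPM or more. These correlations rest on 6 points that share the split into CKO and Rras2FF, and describe these libraries only. Syt6 was most like Klf4, Calhm2 and Id1 (r = 0.9990, 0.9988 and 0.9986). Id1, an inhibitor of differentiation and target of BMP signals, had 6.86 ± 1.02 CPM in CKO and 12.4 ± 0.522 CPM in Rras2FF, and Klf4, a zinc-finger transcription factor, 27.3 ± 2.29 CPM in CKO and 41.6 ± 1.34 CPM in Rras2FF (SD, n = 3 each). Insc was most like Cdv3, Dap and Slc36a2 (r = 0.9982, 0.9982 and 0.9980), with log2 fold changes of -0.12, -0.36 and -1.49. Cdv3 did not pass the edgeR test. Slc36a2, an amino acid transporter, had 8.36 ± 2.27 CPM in CKO and 23.4 ± 0.466 CPM in Rras2FF (SD, n = 3 each).

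Among the genes higher in CKO, Otor was most like Serinc3, Jak1 and Esm1 (r = 0.9997, 0.9945 and 0.9944), with log2 fold changes of 0.18, 0.09 and 0.73. Esm1, a secreted proteoglycan known from endothelium, had 349 ± 37.6 CPM in CKO and 210.4 ± 12.9 CPM in Rras2FF (SD, n = 3 each). Negr1 was most like Cdc42ep2, Phactr1 and Syngr1 (r = 0.9976, 0.9955 and 0.9936), with log2 fold changes of 0.39, 0.69 and 0.27. Jak1 and Cdc42ep2 did not pass the edgeR test. Mpp7 was most like Dnaaf3, S100a13 and Arrdc4 (r = 0.9961, 0.9926 and 0.9905), with log2 fold changes of 0.77, 0.25 and 0.32. Prnd was most like Epb41l4b, Ttyh2 and Meis2 (r = 0.9990, 0.9810 and 0.9719), with log2 fold changes of 0.36, 0.16 and 0.21, none of which passed the edgeR test.

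Some markers of other cells also differed between CKO and Rras2FF, and how they relate to the levels of the 6 genes was not tested. In edgeR 2.1% of all genes rose and 2.74% fell. Of 8 B lineage and plasma cell markers 4 were measured, 3 rose and 0 fell. The 3 were Igkc, Ighm and Jchain, and Cd79b did not pass (edgeR adjusted p = 0.693). The 4 summed to 295 to 357 CPM in CKO and 181 to 198 CPM in Rras2FF, while Cd79a, Ms4a1 and Mzb1, among others, were not analysed here. Of 7 adipocyte markers 6 were measured, with 1 higher and 0 lower in CKO, and a sum of 3054 to 3141 CPM in CKO and 2784 to 2914 CPM in Rras2FF. All 8 osteoblast markers were measured, and their sum was 3454 to 3811 CPM in CKO and 4247 to 4541 CPM in Rras2FF. In edgeR 1 fell, Runx2 (log2 fold change -0.25), and 0 rose. DESeq2 and limma-voom each called 5, against 848 and 434 of all genes, and 7 had an unadjusted p below 0.05. Of these 7, Spp1 was higher in CKO, with 1675 ± 134 CPM against 1491 ± 90.5 CPM in Rras2FF (SD, n = 3 each), a log2 fold change of 0.17. The median log2 fold change of the 8 was -0.499, against 0.001 for all genes. Groups did not overlap for 6 of the 8, against 22.5% of all genes. For Bglap, which encodes osteocalcin, and Alpl, an alkaline phosphatase of mineralizing cells, the log2 fold changes were -1.87 and -0.66. Bglap, Alpl and Spp1 were chosen after their values were seen, and none of them passed in edgeR (adjusted p = 0.116, 0.117 and 0.171).

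Markers of neurons and of other cells were read in the same way, and no list of testis or germ cell markers was used. Of 8 neuron and Schwann cell markers 3 were measured, with a sum of 25.9 to 30.2 CPM in CKO and 25.7 to 26.7 CPM in Rras2FF. None of the 3 passed in edgeR, with 2 at an unadjusted p below 0.05, 1 called by DESeq2 and 0 by limma-voom, and Elavl4, Snap25, Gap43 and Sox10, among others, were not analysed here. Endothelial markers, 7 of 8 measured, summed to 31.9 to 39.8 CPM in CKO and 34.6 to 47.9 CPM in Rras2FF, with 0 called in edgeR, DESeq2 or limma-voom and 2 at an unadjusted p below 0.05. Of 7 skeletal muscle markers 1 was measured, at no more than 2.54 CPM in CKO and 3.41 CPM in Rras2FF, and it was called by none of the 3 tools nor at an unadjusted p below 0.05. The 6 macrophage markers were all measured, and 0 passed in edgeR, DESeq2 or limma-voom, with 1 at an unadjusted p below 0.05.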

How the data were processed

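RNA from 6 BMSC samples was sequenced from libraries made with a stranded mRNA kit, per the labels' protocols. The submitters' processing notes name mm10 as the build. For aligner, counter and strand setting, nothing is given in the sources used here. Values in the deposited table were whole-number counts per gene as the authors counted them, and FPKM values scaled by the authors for length and library size, per the file headers. The deposited log2 fold changes and p-values, per the file headers, were not used, nor the deposited mean of log2(FPKM + 1). The lowest mean count was 22.3 per library, so rarer genes are not analysed here.

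Counts were tested over all 12830 genes with edgeR 4.0.16 in R 4.3.3 (TMM scaling, filterByExpr, which removed 0 genes, quasi-likelihood F test, robust, no covariates) and Benjamini-Hochberg adjustment at 0.05. CPM values are TMM-scaled, and a standard error is the fold change over the root of its F statistic. The scripts were tested on simulated counts. Alternatives were other scalings and filters, DESeq2 1.42.0, limma-voom (limma 3.58.1), a block for the replicate number, leaving out each library, the deposited FPKM and a neighbour window of 0.5 Mb. GENCODE M21 matched 12611 identifiers. Every pair of libraries differed by more than sampling noise. The 6 genes and the lists were chosen with earlier results of these data known. By rule, the genes named are the 6, Rras2, and called list genes or the 2 highest of a list with none. The rule also takes the nearest and any called neighbours, and the 3 genes most like each of the 6. Those 3 left out predicted models, clone names and immunoglobulin segments. Outside this rule, Syt9, Pard3, Gpsm2, Dlg1, Comp, Bglap, Alpl, Spp1, Lyz2, Lpl and Cd79b were picked with their values known. Measured genes between Insc and Rras2, called cell markers and some genes that were not listed were also named.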

Additional observations from a re-analysis of the deposited data

How the results depend on the processing

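The 6 genes were chosen on this comparison, so what follows for them is description only. Their log2 fold changes kept their direction under every alternative run and moved by less than 1 within-group SD. With each library left out they ranged from 0.879 to 1.092 for Otor, 0.868 to 1.045 for Mpp7, 0.864 to 0.961 for Negr1, 0.697 to 1.174 for Prnd, -1.719 to -1.364 for Syt6 and -0.960 to -0.755 for Insc. The count of all called genes was 621, and ranged from 268 to 1166 with 1 library left out: it was 1166, 325 and 341 without CKO replicates 1, 2 and 3, and 371, 268 and 379 without Rras2FF replicates 1, 2 and 3. The 3 called list genes became 6 in DESeq2 and 1 to 7 with a library left out, and the 1 called neighbour became 2 in DESeq2 and 1 to 5. The cause was not tested. Deviations of same-numbered libraries were weakly correlated (r = -0.045, 0.107 and -0.101 for numbers 1, 2 and 3 over genes). Those of differently numbered libraries ranged from -0.197 to 0.227. With 3 libraries per group such values cannot decide whether the numbers pair the libraries, and the labels do not say. With the replicate number as a block in edgeR, 669 genes were called in all, 4 list genes and 1 neighbour, and Col11a1 lost its call (adjusted p = 0.0534). The fold changes were then 0.970, 0.947, 0.915, 0.911, -1.547 and -0.868 for Otor, Mpp7, Negr1, Prnd, Syt6 and Insc. The 3 libraries per group limit the precision, and p-values cover only the spread between them.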
